A study of Mus musculus with 6 samples.

Results

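*Ciita* and the 5 genes of the MHC class II editing proteins, *H2-DMa*, *H2-DMb1*, *H2-DMb2*, *H2-Oa* and *H2-Ob*, are 6 of the 55538 features counted in single peritoneal cells of the mouse, and all 6 were found in the table. They were chosen by name for what they do, and their levels were read in 3 cell classes beside *H2-Ab1*, the β chain of the class II molecule I-A. In the study, peritoneal lavage cells came from C57BL/6J mice aged 8 to 12 weeks, either MerTK +/+ or MerTK -/-. The MerTK -/- line is called MerKD in the labels and was backcrossed to C57BL/6J. The lavage cells were selected by adherence to plastic. They were kept as controls with a medium change or cultured for 2 h or 6 h with apoptotic cells (ACs). The ACs were UV-treated GFP-expressing human Jurkat T cells. Each of the 6 conditions has 1 library, made from the pooled cells of 3 mice. Barcodes carry a library number from 1 to 6 that could not be tied to a genotype or a time, so no comparison between genotypes or times was made, values are given by library number, and no test over conditions was possible. The loss of *Mertk* could not be checked for the same reason.

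MHC class II molecules carry peptides from endosomes to the cell surface, where CD4+ T cells read them. The invariant chain, encoded by *Cd74*, fills the groove of a new class II molecule until H2-DM, a heterodimer of an α chain from *H2-DMa* and a β chain from *H2-DMb1* or *H2-DMb2*, removes its last fragment and edits the peptides that take its place. H2-O, a heterodimer encoded by *H2-Oa* and *H2-Ob*, binds H2-DM and restrains it, and is best known from B cells, while CIITA, the product of *Ciita*, is the coactivator without which class II genes are hardly transcribed.

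Of 7760 barcodes, 7665 passed the filters, with a median of 4378 UMIs, where a UMI marks 1 captured RNA molecule. B cells (at least 4 UMIs of *Cd79a* and *Cd79b*) numbered 3101, and all 10 B cell markers were seen in at least 10% of them. Their gate left out no cells by other markers, and 104 of them held at least 2 UMIs of *Csf1r*, *Adgre1* and *Fcer1g*. Macrophages were gated by at least 2 UMIs of *Csf1r*, *Adgre1* and *Fcer1g*, at most 2 of *Cd79a* and *Cd79b* and at most 1 of *Cd3d*, *Cd3e* and *Nkg7*. Of the 2773 gated cells, 189 with at least 2 UMIs of *Irf4* and *Fcrls* are called *Irf4*/*Fcrls* macrophages here, and 657 with at least 1 *Gata6* UMI are called *Gata6* macrophages, with 8 cells in both. The *Irf4*/*Fcrls* cells carried 6 of 10 markers of small peritoneal macrophages (SPMs) and 4 of 10 markers of large peritoneal macrophages (LPMs) in at least 10% of cells, so they are named by their gate. Of 8 dendritic cell markers, *Flt3*, *Xcr1* and *Ccr7* had no UMI in them, while *Naaa* was seen in 9.52%, *Zbtb46* in 8.99%, *Cd209a* in 5.29%, *Wdfy4* in 3.17% and *Clec9a* in 0.529% of the cells. The 8 summed to 41.3 to 108 CPM over the *Irf4*/*Fcrls* libraries and to 10.7 to 45.3 CPM over the *Gata6* libraries, and their part in the results was not tested. The *Gata6* cells carried 9 of 10 LPM markers. T cells (348), with all 10 T cell markers, served as a class that should lack class II genes. The *Irf4*/*Fcrls* class is thin, with 12 to 82 cells per library, and 66 of its cells sat at the limit of 2 UMIs, as did 430 of the *Gata6* macrophages at the limit of 1 UMI. Between libraries 28 barcode sequences recurred.

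Levels are given as CPM, the UMIs of a gene per 1000000 UMIs of the class, with exact Poisson 95% intervals that cover counting error only. A molecule is counted once whatever its length, so CPM can be set side by side between genes, though capture may differ from gene to gene. All 5 editing genes lie on chromosome 17 within 162 kb of the class II region (GRCm38, GENCODE vM21), on the plus strand: *H2-Oa* at chr17:34092340-34095234, *H2-DMa* at chr17:34119541-34139101, *H2-DMb2* at chr17:34143307-34151555, *H2-DMb1* at chr17:34153072-34160230 and *H2-Ob* at chr17:34238903-34254414. *H2-Ab1* starts 3.28 kb past the end of *H2-Ob*. *Ciita* lies apart, at chr16:10480059-10528418 on the plus strand.

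Promoters of class II genes share an X box, bound by the RFX complex, and a Y box with the core ATTGG, bound by NF-Y, to which CIITA is recruited. The stretches below are from RefSeq windows of GRCm38.p6 on the plus strand. They are shown because in 3 of the editing genes they hold both AACNNATGA, letters of the X box, and ATTGG. That of *H2-Oa* holds ATTGG but not AACNNATGA, and the classical class II gene *H2-Eb1* is given for comparison. Capitals mark the letters AACNNATGA of the X box, where present, and ATTGG.

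H2-DMb1 (chr17:34153085-34153144): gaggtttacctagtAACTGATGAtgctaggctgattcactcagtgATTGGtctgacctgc
H2-DMb2 (chr17:34145114-34145173): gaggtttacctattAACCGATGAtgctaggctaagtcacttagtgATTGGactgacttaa
H2-Ob (chr17:34238803-34238862): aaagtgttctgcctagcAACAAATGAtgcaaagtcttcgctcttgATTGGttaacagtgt
H2-Oa (chr17:34092291-34092350): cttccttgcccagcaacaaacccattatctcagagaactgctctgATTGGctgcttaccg
H2-Eb1 (chr17:34305763-34305822): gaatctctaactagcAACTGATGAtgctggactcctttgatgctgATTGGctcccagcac

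In *H2-DMb1*, *H2-DMb2*, *H2-Ob* and *H2-Eb1* the 2 capital runs are 22, 22, 19 and 21 bases apart, and ATTGG begins 61, 90, 57 and 59 bases before the start site. The *H2-DMb1* and *H2-DMb2* stretches are alike in 51 of 60 bases. Letters AACNNATGA, chosen after the windows had been seen, occur on either strand in 2.85% of the 32851 promoter windows of 300 bases, ATTGG in 37.4%, and AACNNATGA followed by ATTGG after 20 to 40 bases on the same strand in 0.0791%, which leaves out the *H2-Ob* pair with its 19 bases. The X box letters AGNAACNGA and GNNACNGAT occur in 5.35% and 7.82% of windows. Among the members both were found for *H2-DMb1*, where they overlap AACNNATGA. *H2-Oa* held AGNAACNGA on the minus strand, 4 bases before the start site, and GNNACNGAT 140 bases before it. *H2-Ob* held GNNACNGAT on the minus strand, 32 bases past the start site. These matches of *H2-Oa* and *H2-Ob* lie outside the stretches shown. *H2-DMb2* and *H2-DMa* held neither. AGNAACNGA or GNNACNGAT followed by ATTGG at the same spacing occurs in 0.201% of windows, and among the members in that of *H2-DMb1* only. The longer Y box CTGATTGG is in 4.10% of windows and among the members in that of *H2-Oa* only. *H2-DMa* has 2 windows, neither with AACNNATGA. A match is a description of letters, and no window of *Ciita* was used here.

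Of the 3 classes, *Ciita* was highest in B cells and had few UMIs in macrophages. In B cells it ran from 17.3 to 83.8 CPM over the 6 libraries with a median of 65.6, and over all B cells it was 63.0 CPM (59.5–66.5, 1266 UMIs). In *Irf4*/*Fcrls* macrophages it was at 0 in 3 libraries and reached 32.0 CPM in library 3, with 11.2 CPM in all (5.59–20.04). In *Gata6* macrophages no *Ciita* UMI was counted in any library, and the 3 UMIs that a count of 0 allows set a limit of 0.758 CPM over the 657 cells and of 0.457% for cells with a UMI, which is no limit for cells expressing the gene. Over all cells *Ciita* was 5.62-fold higher in B cells than in *Irf4*/*Fcrls* macrophages (log2 2.49, 1.65–3.497), and its B cell level was 83.1-fold the limit of *Gata6* macrophages. B cells had the higher value in 6 of 6 libraries, but in library 3 they were at 35.0 against 32.0 CPM, a log2 difference of 0.13 whose interval (-0.83–1.29) includes 0, as does that of library 6 (2.32, -0.30–7.68). Libraries 2, 4 and 5 had 12, 16 and 13 *Irf4*/*Fcrls* cells with no *Ciita* UMI.

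The macrophage value rested on 11 UMIs in 7 cells. Library 3 gave 9 of these UMIs, in 5 of its 39 *Irf4*/*Fcrls* cells, and without it the level was 2.86 CPM from 2 UMIs and B cells were 24.7-fold higher (log2 4.63, 2.77–7.67). The 7 cells held 13 to 62 *H2-Ab1* UMIs each. One of them, with 3 of the *Ciita* UMIs, also held 6 UMIs of B cell markers, and 3 of them held UMIs of dendritic cell genes, at most 2 per cell. None was called a doublet by Scrublet. The level in *Irf4*/*Fcrls* macrophages was 14.8-fold the limit of *Gata6* macrophages, 6.25-fold with stricter gates and 10.5-fold without library 1. These folds leave out the counting error of the *Irf4*/*Fcrls* level, so they are not lower bounds. Without library 3 both classes were at or below the 3 UMIs that a count of 0 allows and no fold is given. Among the 1935 gated macrophages outside both classes, *Ciita* was at 5.395 CPM (3.98–7.15, 30 cells with a UMI).

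Shares of cells gave the same order. A *Ciita* UMI was seen in 28.1% of B cells, 3.70% of *Irf4*/*Fcrls* macrophages and 0.287% of T cells, at median depths of 5561, 4256 and 2799 UMIs per cell. With every cell thinned to 1500 UMIs the shares were 10.8%, 0.543% and 0%.

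**Figure D1:**
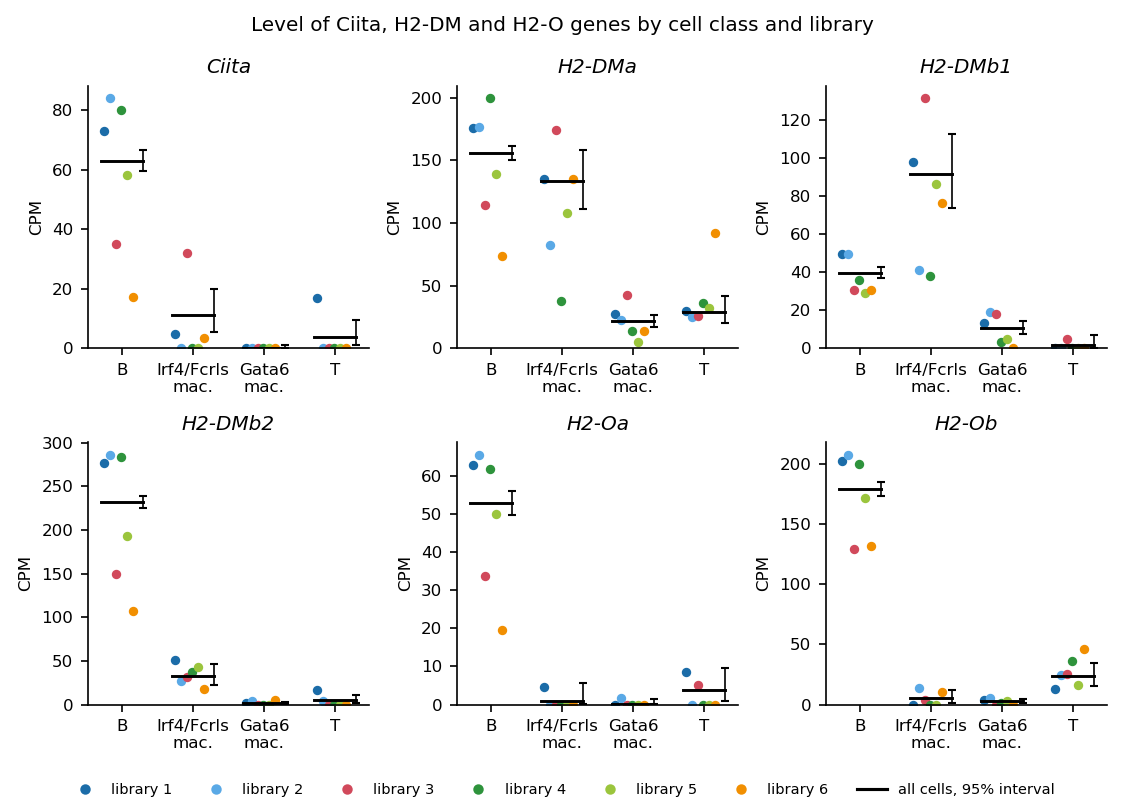
Level of each of the 6 genes in CPM (vertical axes, from 0, differing between panels) in B cells, *Irf4*/*Fcrls* macrophages, *Gata6* macrophages and T cells. Points are the 6 libraries, lines the value over all cells of the class with its 95% counting interval: *Ciita*, *H2-DMb2*, *H2-Oa* and *H2-Ob* stand high in B cells, and *H2-DMb1* is highest in *Irf4*/*Fcrls* macrophages. *H2-DMa* is at like levels in B cells and *Irf4*/*Fcrls* macrophages over all cells, but differs either way within libraries.

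The H2-DM genes did not move as 1 unit between classes. *H2-DMa*, the single α chain, had a library median of 158 CPM in B cells (73.8–200) and of 122 CPM in *Irf4*/*Fcrls* macrophages (37.8–174). Over all cells it was 156 against 133 CPM, a log2 difference of 0.23 whose interval (-0.03–0.49) includes 0, with B cells higher in 4 of 6 libraries. This value covers opposite differences. Within libraries *H2-DMa* was higher in B cells in library 4 (2.40, 0.85–4.68) and lower in libraries 3 (-0.60, -1.03–-0.15) and 6 (-0.88, -1.43–-0.30). The intervals of the other libraries include 0. In *Gata6* macrophages it was 21.5 CPM (libraries 5.14–42.9), so that *Irf4*/*Fcrls* macrophages were 6.21-fold higher (log2 2.64, 2.23–3.05, 6 of 6 libraries). T cells, gated as a class that should lack class II genes, were at 29.2 CPM, so the *Gata6* level was not above theirs. The source of the T cell counts was not tested, so their level is not shown to be background. A *H2-DMa* UMI was seen in 11.0% of *Gata6* macrophages and 8.62% of T cells at median depths of 5542 and 2799 UMIs, and in 2.91% and 4.42% once thinned, against 37.6% and 21.2% for *Irf4*/*Fcrls* macrophages.

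The β chain genes went opposite ways. *H2-DMb2* had a library median of 235 CPM in B cells (107–286) against 34.9 CPM in *Irf4*/*Fcrls* macrophages (17.4–51.3) and 0.645 CPM in *Gata6* macrophages (0–4.64). The B cell libraries were all above all macrophage libraries, and over all cells the difference between B cells and *Irf4*/*Fcrls* macrophages was 7.12-fold (log2 2.83, 2.33–3.38). *H2-DMb1* had a library median of 33.3 CPM in B cells (28.9–49.5), 81.4 CPM in *Irf4*/*Fcrls* macrophages (37.8–131) and 9.34 CPM in *Gata6* macrophages (0–19.1). It was lower in B cells than in *Irf4*/*Fcrls* macrophages by 1.20 on the log2 scale (-1.52–-0.87), in 5 of 6 libraries, with library 2 the exception. The ranges of the B cell and *Irf4*/*Fcrls* libraries overlap for *H2-DMb1* and do not for *H2-DMb2*.

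The H2-DM genes summed to 428 CPM in B cells and 258 CPM in *Irf4*/*Fcrls* macrophages, a log2 difference of 0.73 (0.55–0.92), with B cells higher in 4 of 6 libraries and lower in libraries 3 and 6.

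Expressed as a share, *H2-DMb2* made up 85.3% (84.4–86.3%) of the *H2-DMb1* and *H2-DMb2* UMIs of B cells, with libraries from 77.6% to 88.8%. In *Irf4*/*Fcrls* macrophages the share was 26.2% (18.7–35.0%, 122 UMIs), with libraries from 18.5% to 50%, and in *Gata6* macrophages 10.6% (3.55–23.1%, 47 UMIs). The other gated macrophages were at 16.8% (11.8–22.7%). No macrophage library with at least 5 such UMIs reached the lowest B cell library. The genes are close copies, 1.52 kb apart. Of the windows in *H2-DMb1* transcripts, 11.7% of those of 98 bases and 4.71% of those of 150 bases are found unchanged in *H2-DMb2* transcripts. The methods give both read lengths. Reads there cannot be told apart, and how many reads fall in such windows was not measured, so the effect on the split is not known. The α chain gene gave 57.4 UMIs per 100 UMIs of both β chain genes in B cells (54.9–59.9), 107 in *Irf4*/*Fcrls* macrophages (83.3–139) and 181 in *Gata6* macrophages (125–264).

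**Figure D2:**
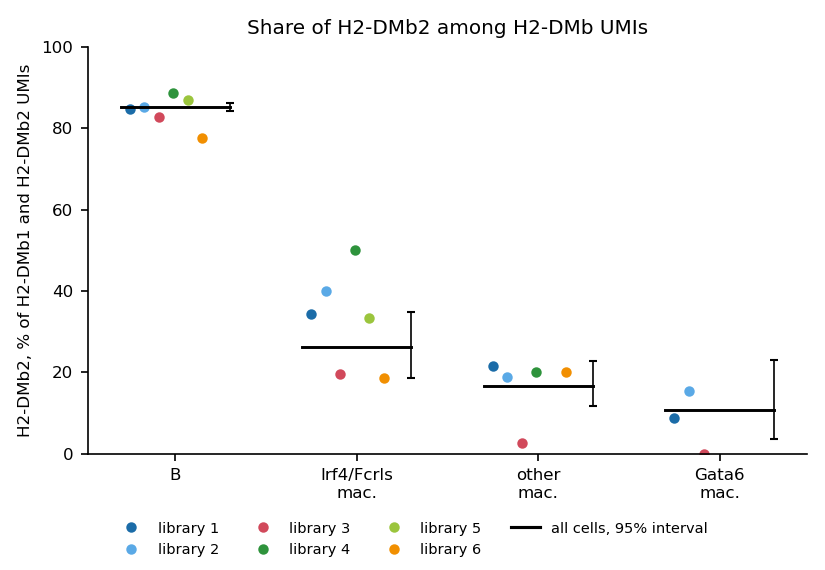
Share of *H2-DMb2* among *H2-DMb1* and *H2-DMb2* UMIs (vertical axis, percent) in B cells and in 3 groups of gated macrophages. Points are libraries with at least 5 such UMIs, lines the value over all cells with its exact binomial 95% interval: B cells are at 85.3%, and the macrophages between 10.6% and 26.2%.

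*H2-Oa* and *H2-Ob*, the chains of the H2-DM inhibitor, were counted almost only in B cells among the 3 classes. *H2-Oa* had a B cell library median of 56.0 CPM (19.6–65.6) and *H2-Ob* one of 186 CPM (129–208). In *Irf4*/*Fcrls* macrophages *H2-Oa* had 1 UMI and *H2-Ob* 5 UMIs in 189 cells, at 1.02 and 5.09 CPM. In *Gata6* macrophages there were 1 and 11 UMIs in 657 cells, at 0.253 and 2.78 CPM. The sum of both was 38.1-fold higher in B cells than in *Irf4*/*Fcrls* macrophages (log2 5.25, 4.13–6.70) and 76.8-fold higher than in *Gata6* macrophages (log2 6.26, 5.46–7.22), in 6 of 6 libraries each. Between the macrophage classes the difference was 1.01 on the log2 scale, with an interval (-0.69–2.54) that includes 0. A *H2-Ob* UMI was seen in 61.5% of B cells (27.8% thinned), 2.65% of *Irf4*/*Fcrls* macrophages (1.09%) and 6.90% of T cells (2.65%). The macrophage share thus lay below that of T cells, and the source of the T cell counts was not tested.

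B cell RNA was present at a low level in the other classes, and the H2-O counts of *Irf4*/*Fcrls* macrophages lay near it. The 8 B cell markers other than *Ighm* and *Ighd* were at 3.59% of their B cell level in *Irf4*/*Fcrls* macrophages and at 0.482% in *Gata6* macrophages. At that share of the B cell level *H2-Oa* would stand at 1.90 CPM and *H2-Ob* at 6.46 CPM in *Irf4*/*Fcrls* macrophages, beside the 1.02 and 5.09 CPM counted. The share rests on 61 marker UMIs in these cells, 31 of them of *Ebf1*, and has no interval. Which of such close values is the higher is thus not settled. *H2-DMb2*, at 32.6 CPM, lay above the 8.34 CPM of that share, and *H2-DMa* and *H2-DMb1* were 23.8 and 64.0 times above theirs, while *Ciita* was at 11.2 CPM beside 2.26. In *Gata6* macrophages *H2-DMb2*, at 1.26 CPM, lay at the 1.12 CPM that the share gives, and *H2-Oa* at 0.253 beside 0.255 CPM. *H2-Ob* was 3.20 times above its share there (2.78 beside 0.867 CPM, 11 UMIs), *H2-DMa* 28.5 times and *H2-DMb1* 55.2 times. All 10 B cell markers summed to 21.6 to 224 CPM over the *Irf4*/*Fcrls* libraries, against 2955 to 4191 CPM over B cell libraries, and none was in 10% of the *Irf4*/*Fcrls* cells. Their part in the counts was not tested. In B cells the 10 LPM markers summed to 412 CPM, against 26514 CPM in *Gata6* macrophages. The part of macrophage RNA in the B cell counts was not tested either.

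Read against all features, the pattern was as follows. A feature was called where it had at least 50 UMIs over both classes and differed at least 2-fold over all cells, in the same direction in 6 of 6 libraries. Of the 6 genes, 4 (*Ciita*, *H2-DMb2*, *H2-Oa* and *H2-Ob*) were called higher in B cells than in *Irf4*/*Fcrls* macrophages, where 20.6% of 10983 features were, and 0 were called lower, where 8.66% were. Their median log2 difference was 2.66, beside 0.34 over all features tested. Between *Irf4*/*Fcrls* and *Gata6* macrophages only *H2-DMa* and *H2-DMb1* had enough UMIs, and both were called higher in the former, where 5.67% of 6970 features were, and 0 were called lower, where 7.95% were. Between B cells and *Gata6* macrophages all 6 were called higher in B cells, where 25.1% of 11378 features were. The classes share no cells here other than the 8 of both macrophage classes, but the comparisons share classes and are not independent of each other.

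The class II chains themselves were ordered otherwise. *H2-Aa*, the I-A α chain, was at 4398 CPM in B cells and 4364 CPM in *Irf4*/*Fcrls* macrophages, and *H2-Eb1*, the I-E β chain, at 2787 and 2655 CPM. *H2-Ab1* was lower in B cells, at 1318 CPM (libraries 1248–1452) against 2963 CPM (1738–4032), by 1.17 on the log2 scale in 6 of 6 libraries. *Cd74* was at 11196 and 12767 CPM. In *Gata6* macrophages these 4 were at 430, 226, 449 and 1656 CPM. Of the list of 5 class II chain genes, 1 was called higher in B cells than in *Irf4*/*Fcrls* macrophages, *H2-Eb2* (68.0 against 4.07 CPM), and 1 lower, *H2-Ab1*. The 4 with enough UMIs were all called higher in *Irf4*/*Fcrls* than in *Gata6* macrophages, and all 5 higher in B cells than in *Gata6* macrophages.

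Set against *H2-Ab1*, B cells held the most H2-DM. The 3 H2-DM genes gave 32.5 UMIs per 100 *H2-Ab1* UMIs in B cells (31.7–33.3, libraries 14.6–39.7), 8.69 in *Irf4*/*Fcrls* macrophages (7.62–9.89, libraries 6.52–12.2) and 7.42 in *Gata6* macrophages (6.17–8.86, libraries 5.58–21.1). The B cell and *Irf4*/*Fcrls* libraries do not overlap, while the *Gata6* libraries overlap both. The size of the gap depended on the chain used, and in part so did the order. Per 100 *H2-Aa* UMIs the values were 9.73, 5.90 and 7.75, and per 100 *Cd74* UMIs 3.82, 2.02 and 2.01. With these chains the B cell and *Irf4*/*Fcrls* libraries overlap. They ran at 4.23–13.6 against 4.21–7.53 per 100 *H2-Aa* and at 2.37–4.66 against 1.38–2.42 per 100 *Cd74*. With *H2-Aa* the order of the macrophage classes was turned. Without library 1, *Gata6* macrophages gave 10.9 per 100 *H2-Ab1* UMIs. *Ciita* gave 4.78 UMIs per 100 *H2-Ab1* UMIs in B cells (4.51–5.06), 0.378 in *Irf4*/*Fcrls* macrophages (0.188–0.677) and 0 in *Gata6* macrophages, beside 1779 *H2-Ab1* UMIs. Per 100 *H2-Aa* UMIs, of which B cells and *Irf4*/*Fcrls* macrophages had like levels, *Ciita* gave 1.43 and 0.257.

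Of the 3 classes, B cells held the most H2-O for their H2-DM. There were 54.4 H2-O UMIs per 100 H2-DM UMIs in B cells (52.5–56.3, libraries 50.6–71.5), 2.37 in *Irf4*/*Fcrls* macrophages (0.862–5.23, 6 UMIs) and 9.09 in *Gata6* macrophages (4.58–16.4, 12 UMIs). The macrophage values have overlapping intervals. T cells, with 29 H2-O and 38 H2-DM UMIs in all, had a library median of 67.9 (45.5–100).

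**Figure D3:**
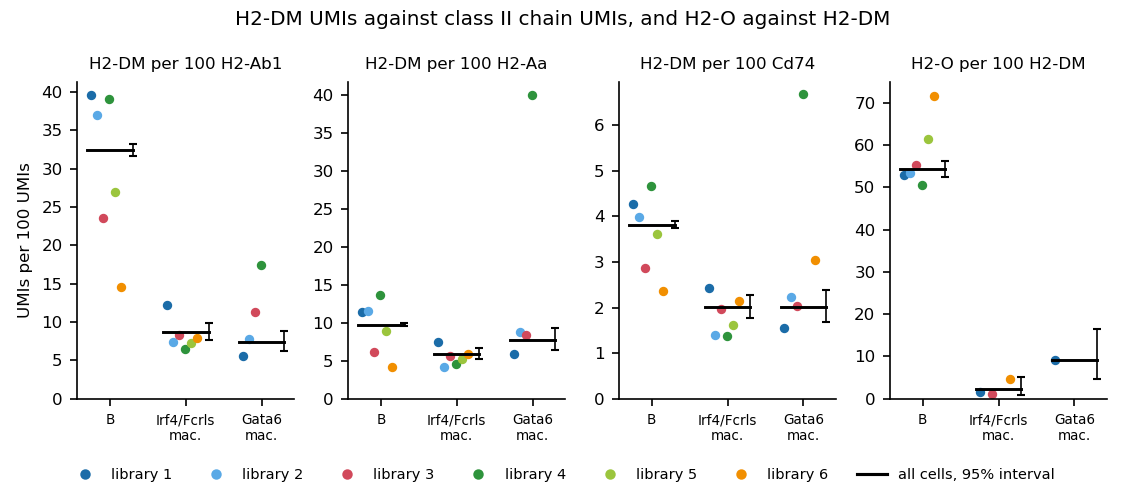
H2-DM UMIs (sum of 3 genes) per 100 UMIs of *H2-Ab1*, *H2-Aa* and *Cd74*, and H2-O UMIs (sum of 2 genes) per 100 H2-DM UMIs, in 3 classes. Points are libraries with at least 50 UMIs in numerator and denominator together, lines the value over all cells with its 95% interval: B cells are highest in each panel over all cells, with 32.5 against 8.69 and 7.42 per 100 *H2-Ab1*, but only 9.73 against 5.90 and 7.75 per 100 *H2-Aa*.

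Within macrophages H2-DM was highest in the cells with the most *H2-Ab1* UMIs. The 23 *Irf4*/*Fcrls* cells with no *H2-Ab1* UMI held no UMI of any of the 6 genes, at a median depth of 4061 UMIs, while the 150 with at least 5 held H2-DM at 309 CPM (271–350) and all 11 *Ciita* UMIs. The 0 of *Ciita* in the cells with 0 and with 1 to 4 *H2-Ab1* UMIs allows up to 29.8 and 38.6 CPM, above the 13.7 CPM of the highest bin, so no difference in *Ciita* was detectable between these bins. Of the 48 *Ciita* UMIs of the other gated macrophages, 46 were in 28 of their 517 cells with at least 5 *H2-Ab1* UMIs (16.5 CPM, 12.1–22.0), 0 in 509 cells with 1 to 4 and 2 in 909 cells with none (0.567 CPM, 0.0687–2.05). In *Gata6* macrophages H2-DM was at 14.4, 24.4 and 73.1 CPM in cells with 0, 1 to 4 and at least 5 *H2-Ab1* UMIs (326, 196 and 135 cells), with intervals of the last bin (57.8–91.3) clear of the others. Depth rose with the bins, from a median of 4656 to 6033 and 7496 UMIs, so the bins also sort cells by depth. *H2-DMb1* rose from 1.20 to 29.997 CPM between the outer bins and *H2-DMa* from 13.2 to 41.2 CPM, whereas *H2-DMb2* was at 0 and 1.87 CPM. *Ciita* had no UMI in any *Gata6* bin. The 135 cells with at least 5 *H2-Ab1* UMIs, at 1306 CPM of *H2-Ab1*, allow at most 2.81 CPM of *Ciita* at 3 UMIs. B cells were at 1318 CPM of *H2-Ab1*, but this bin was chosen by that gene. Over all *Gata6* macrophages *H2-Aa* was at 430 CPM, against 4398 CPM in B cells.

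**Figure D4:**
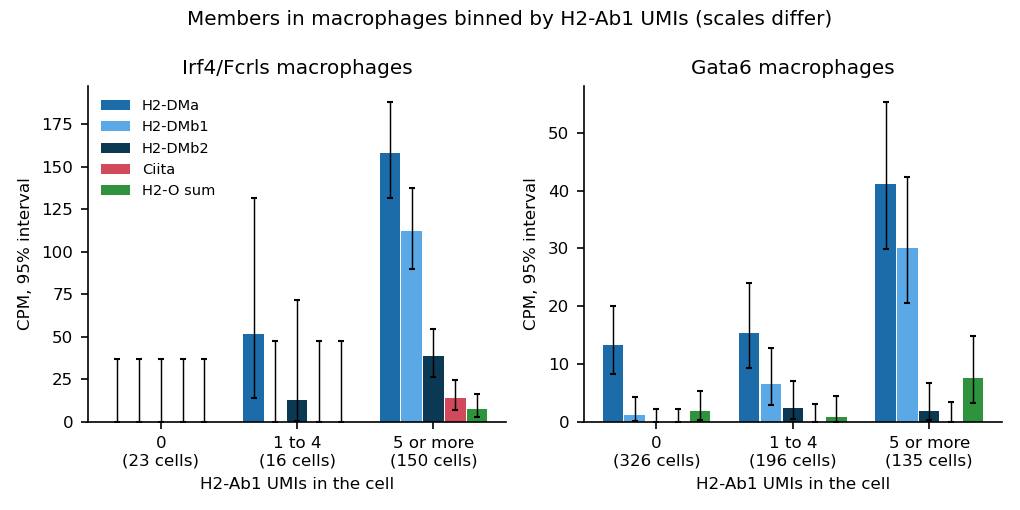
Level in CPM (vertical axes, from 0, differing between panels) of the H2-DM genes, *Ciita* and the H2-O sum in *Irf4*/*Fcrls* and *Gata6* macrophages sorted by the *H2-Ab1* UMIs of the cell. Bars are values over all cells of the bin with exact Poisson 95% intervals: *H2-DMa* and *H2-DMb1* are highest in the bin of at least 5 UMIs, and *Ciita* is at 0 in every *Gata6* bin.

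Among B cell libraries each of the 6 genes ranged by more than any of the 5 class II chain genes. *Ciita* was lowest in library 6, at 17.3 CPM, then in library 3, at 35.0 CPM, and 58.3 to 83.8 CPM in the others, a range of 4.84-fold. *H2-DMa* (2.71-fold), *H2-DMb2* (2.68-fold) and *H2-Oa* (3.35-fold) had the same 2 libraries lowest, in the same order, *H2-Ob* (1.61-fold) had library 3 below library 6, and *H2-DMb1* (1.71-fold) was lowest in library 5. *H2-Ab1* (1.16-fold), *H2-Aa* (1.31-fold) and *H2-Eb1* (1.28-fold) were highest in library 6, while *Cd74* and *H2-Eb2* (both 1.44-fold) were lowest there, at 8934 and 52.7 CPM. A range of at least 2-fold was found for 4 of the 6 genes, where 35.7% of the 3816 features of at least 30 CPM in B cells had one. The median range of these features was 1.78-fold, above the ranges of *H2-DMb1* and *H2-Ob*. The *Ciita* level of library 6 rested on 23 UMIs. *Cd79b*, 1 of the genes that gate these cells, ranged by 2.76-fold with the same libraries lowest (254 and 284 CPM). *Ms4a1* ranged by 2.14-fold with library 3 lowest. B cells of library 6 were the shallowest, with a median of 3891.5 UMIs per cell, and those of library 3 the deepest, with 7257.5. The part of the gate and of depth in the ranges was not tested, and the library numbers carry no condition.

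**Figure D5:**
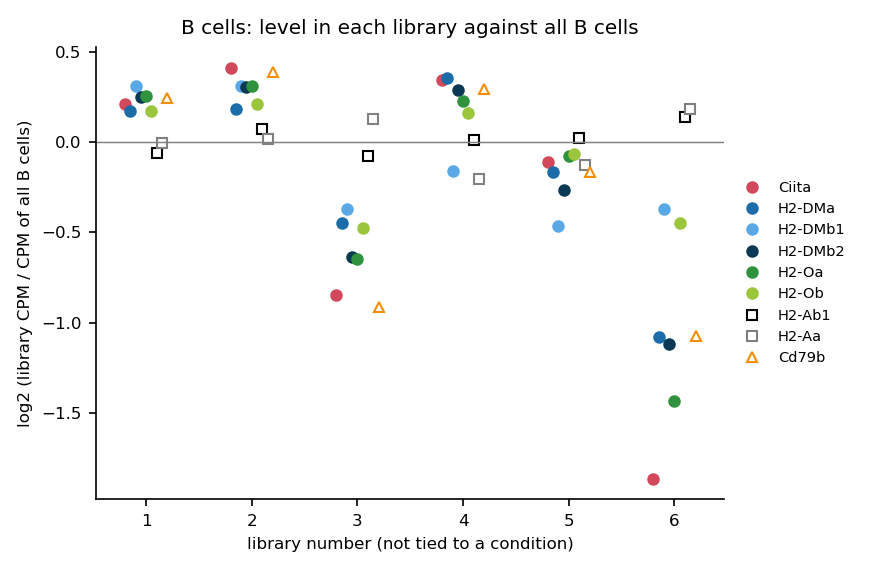
Level of each gene in the B cells of each library, as log2 of its ratio to the level over all B cells (vertical axis), by library number (horizontal axis). Filled circles are the 6 genes, squares *H2-Ab1* and *H2-Aa*, triangles *Cd79b*: the 6 genes lie below 0 in libraries 3, 5 and 6, *Ciita* the lowest in library 6, while *H2-Ab1* stays near 0.

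B cells were also sorted into subsets by other genes. B cells with *Fcer2a*, the gene of CD23 that marks follicular B cells, numbered 162, B cells without it but with *Bhlhe41* or *Zbtb32*, genes known from B-1 cells, 1363, and B cells with at least 2 UMIs of *Egr3* and *Egr4*, early genes of activation, 319. *Ciita* was at 51.8 CPM (39.2–67.1) in the first and 53.1 CPM (48.8–57.6) in the second, a log2 difference of -0.04 (-0.46–0.36). *H2-Ob* was higher in the first than in the second by 0.34 on the log2 scale (0.13–0.55) in 6 of 6 libraries, at 194 and 153 CPM. It was lower in the *Egr3*/*Egr4* cells than in the *Fcer2a* cells by 0.49 (0.25–0.74 in size) in 6 of 6 libraries, at 137 CPM. *H2-Oa* was at 64.5, 44.4 and 36.4 CPM in the 3 subsets, higher in the first than in the second by 0.54 (0.16–0.90) in 5 of 6 libraries, and lower in the *Egr3*/*Egr4* cells than in the *Fcer2a* cells by 0.82 over all cells (0.37–1.27 in size) but higher in 2 of 6 libraries. *H2-DMb2* was at 262, 203 and 196 CPM, higher in the first than in the second by 0.37 (0.19–0.55) in 5 of 6 libraries, with the *Egr3*/*Egr4* cells higher than the *Fcer2a* cells in 3 of 6. *H2-DMb2* made up 85.2%, 84.5% and 80.7% of *H2-DMb1* and *H2-DMb2* UMIs in the 3 subsets. The subsets overlap, with 26 *Egr3*/*Egr4* cells also in the first and 180 in the second.

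Few of the factors that act on class II promoters were called. Of the 7 promoter-binding genes (*Rfx5*, *Rfxap* and *Rfxank* of the RFX complex, *Nfya*, *Nfyb* and *Nfyc* of NF-Y, and *Creb1*), 0 were called higher and 1 lower in B cells than in *Irf4*/*Fcrls* macrophages, *Nfya* (26.5 against 62.1 CPM), where 20.6% and 8.66% of all features were. *Rfx5* was at 13.6 against 2.04 CPM, in 5 of 6 libraries. Of the 5 tested between the macrophage classes, 0 were called either way. The 4 coactivator genes that work with CIITA (*Crebbp*, *Ep300*, *Kat2b*, *Smarca4*) were not called in either comparison. Against *Gata6* macrophages B cells were called higher in 2 of the 7, *Rfxank* (10.4 against 4.29 CPM) and *Nfyb* (28.2 against 13.9 CPM), and lower in 1 of the 4, *Kat2b* (7.91 against 21.2 CPM), beside 25.1% of all features called higher and 13.6% lower, so the shares called are of the order of the background.

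Of 7 genes known to act on *Ciita* itself, 2 were called higher in B cells than in *Irf4*/*Fcrls* macrophages: *Irf8* (253 against 51.9 CPM) and *Pax5* (81.2 against 5.09 CPM), a regulator of B cell identity. *Spi1*, encoding PU.1, was called lower in B cells (93.2 against 529 CPM). With 20.6% of all features called higher and 8.66% lower, 2 and 1 of 7 are near the background. Of 6 tested, *Irf1* and *Irf8* were called lower in *Irf4*/*Fcrls* than in *Gata6* macrophages (7.95% of all features were), at 15.3 against 47.7 and 51.9 against 107 CPM. *Prdm1*, encoding the repressor Blimp-1, was at 22.0, 40.7 and 65.9 CPM in B cells, *Irf4*/*Fcrls* and *Gata6* macrophages, and was called in the comparison of B cells with *Gata6* macrophages, lower in B cells. *Socs1*, an inhibitor of interferon signalling, was at 50.5, 34.6 and 11.4 CPM.

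Of 5 antigen processing genes, which prepare class II peptides, 3 were called lower in B cells than in *Irf4*/*Fcrls* macrophages, where 8.66% of all features were: *Ctss*, encoding the cathepsin that trims the invariant chain (184 against 628 CPM), *Ctsl* (10.0 against 658 CPM) and *Ctsb* (384 against 2963 CPM). *Lgmn* was at 47.2 against 262 CPM, lower in 5 of 6 libraries. None of the 5 was called between the macrophage classes, with *Ifi30*, a thiol reductase, at 151 against 50.005 CPM, higher in 5 of 6. Of 6 genes of surface turnover and costimulation, *Cd40* (24.8 against 11.2 CPM) was called higher in B cells than in *Irf4*/*Fcrls* macrophages, and *March8* (1.24 against 34.6 CPM) and *Cd80* (9.45 against 39.7 CPM) lower, beside background shares of 20.6% and 8.66%. *Cd86* (415 against 195 CPM) and *Cd83* (255 against 82.1 CPM) were called higher in *Irf4*/*Fcrls* than in *Gata6* macrophages, beside 5.67% of all features.

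Over the 24 sums of 4 classes and 6 libraries, the features of at least 200 UMIs closest to each gene by Pearson's r of log2(CPM + 10) differed between the genes. For *Ciita* they were *Cacna1s*, *Gm15326* and *H2-Oa* (0.93 to 0.92), for *H2-Oa* they were *Gm30211*, *Tlr9* and *Fcrla* (all 0.98), and for *H2-DMb2* they were *Napsa*, *Sp140* and *Bcl11a* (0.96 to 0.93). For *H2-DMb1* they were *Slc37a2*, *Cbfa2t3* and *Tsc22d1* (0.91 to 0.89), for *H2-DMa* they were *S100a6*, *Atp5e* and *Mir155hg* (0.91 to 0.82), and for *H2-Ob* they were *Cxxc5*, *Ighm* and *Mzb1* (all 0.92). The likeness to *H2-Ab1* was 0.88 for *H2-DMb1*, 0.74 for *H2-DMa*, 0.64 for *H2-DMb2*, 0.44 for *Ciita*, 0.33 for *H2-Oa* and 0.14 for *H2-Ob*. The sums of a class share cells' depth and gates, so these values are a description.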

How the data were processed

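Libraries were prepared with a 5′ droplet kit. The authors aligned reads to human and mouse genomes (mm10/GRCm38) with STAR through Cell Ranger and deposited raw UMI counts per gene and cell for all 6 libraries in 1 table; the labels name Cell Ranger 2.2 and Seurat 3.0, and the annotation is not given in the sources used here. Barcodes were kept if they had 500 genes or more, no more than 10% mitochondrial UMIs, and a log10 gene number at or above 0.8 of the log10 UMI number. Depth was 4234786 to 10287079 UMIs per library.

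UMIs were summed over the cells of a class and divided by the class total. Ratios have exact conditional 95% intervals, shares exact binomial ones (scipy 1.17.1, Python 3.11.15), and 3 UMIs were taken as the limit behind a 0. These intervals cover counting error only, and cells are not replicates, so no p-value is given. Code was tested on simulated data. Scrublet (scanpy 1.11.5) called 47 barcodes as doublets (0.606%), of which 29 were B cells, 1 an *Irf4*/*Fcrls* and 1 a *Gata6* macrophage; they were kept, and left out as an alternative. Its threshold in library 3 shifted with numerical rounding. Free RNA was not removed. The members and lists were chosen with earlier results of these data known. Named genes are the members, all genes of the lists, and the 3 features closest to each member. Alternatives were other filters, gates, denominators, thinning, pooling and leaving out each library.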

Additional observations from a re-analysis of the deposited data

Results flagged for a closer look

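T cells served only as a background class and in the likeness of genes, and members with more UMIs in them than the 3 that a count of 0 allows were looked at again. *H2-DMa* had 31 UMIs in 30 of 348 T cells (29.2 CPM, 19.8–41.4) and was counted in 6 of 6 libraries, with 92.1 CPM in the highest. *H2-Ob* had 25 UMIs in 24 T cells (23.5 CPM, 15.2–34.7), also in 6 of 6 libraries. B cell marker RNA in T cells was at a share of 1.96% of the B cell level. That share gives 3.52 CPM for *H2-Ob* and 3.06 CPM for *H2-DMa*. *H2-DMb2* had 5 UMIs in 2 cells (4.71 CPM), beside 4.55 CPM at that share. *H2-Oa* had 4 UMIs in 4 cells. *Ciita* had 4 UMIs, all in 1 cell of library 1 that also held 25 *H2-Ab1* UMIs, 4 *H2-DMb2* UMIs and 7 *Ccr7* UMIs. *H2-Ab1* itself was seen in 12 T cells. The source of these counts was not tested.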

How the results depend on the processing

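Of 213 values recomputed under alternatives, 189 lay within the 95% interval of the reported value and 24 lay outside. The *Ciita* level of *Irf4*/*Fcrls* macrophages over the limit of *Gata6* macrophages has no interval and was counted as within if it moved by at most 1.5-fold. No log2 ratio turned in direction. Shares and UMIs per 100 UMIs are never negative, so they could not turn. For H2-DM per 100 *H2-Ab1* UMIs the order of the macrophage classes turned in the median over libraries, with stricter gates and without library 1. Thinning to 1500 UMIs moved the log2 ratio of B cells over *Irf4*/*Fcrls* macrophages to 4.46 for *Ciita* and 1.04 for H2-DM, the *H2-DMb2* share to 17.4% in *Irf4*/*Fcrls* and 0% in *Gata6* macrophages, and the B cell values to 37.5 H2-DM UMIs per 100 *H2-Ab1* UMIs and 58.4 H2-O per 100 H2-DM. Stricter gates lowered the *Ciita* level of *Irf4*/*Fcrls* macrophages over the *Gata6* limit to 2.64 on the log2 scale (6.25-fold). They gave 35.4 H2-DM per 100 *H2-Ab1* in B cells and 9.28 in *Gata6* macrophages. The median over libraries was 7.61 in *Irf4*/*Fcrls* and 14.3 in *Gata6* macrophages. With *H2-Aa* in place of *H2-Ab1*, added after seeing the data, the values were 9.73 in B cells and 5.90 in *Irf4*/*Fcrls* macrophages, and with *Cd74* they were 3.82, 2.02 and 2.01 in the 3 classes. Leaving out each library in turn gave 2.199 to 4.63 for the *Ciita* ratio (highest without library 3), 0.60 to 1.04 for the H2-DM ratio, 30.3 to 34.7 H2-DM per 100 *H2-Ab1* in B cells and 6.88 to 10.9 in *Gata6* macrophages (highest without library 1). The cause of these shifts was not tested. The *Ciita* level of *Irf4*/*Fcrls* macrophages over the *Gata6* limit was 3.39 to 4.17 on the log2 scale without 1 library. It had no value when thinned, as a median over libraries or without library 3. In calls, leaving out library 2 made *H2-DMb1* lower in B cells than in *Irf4*/*Fcrls* macrophages, and no other call of a member changed without a library. No paired analysis was possible because each condition has 1 library and the columns are not tied to conditions. Cell classes were compared within each library as well, as a count of libraries and with no test. The 189 *Irf4*/*Fcrls* cells limit all their values.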

Other observations

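Cells with dendritic cell genes were too few to form a class: 8 cells had at least 3 UMIs of *Flt3*, *Zbtb46*, *Xcr1*, *Clec9a* and *Cd209a*. With at least 2 such UMIs, a limit chosen after the first count had been seen, there were 26 cells, 6 of them also *Irf4*/*Fcrls* macrophages and 4 also *Gata6* macrophages. Their *Ciita* level was 73.0 CPM (36.5–131), from 11 UMIs in 4 cells, and *H2-Ab1* was at 2742 CPM. *H2-DMb1* was at 126 CPM (75.9–197) and *H2-DMb2* at 46.5 CPM (18.7–95.7), which puts the *H2-DMb2* share at 26.9% (11.6–47.8%). *H2-Oa* and *H2-Ob* had 3 and 4 UMIs in these cells.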
